A study of Mus musculus with 5 samples.

Results

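The 1206 piRNA entries described here are those in which mature mouse spermatozoa held the largest part of the reads among 5 germ cell and embryo libraries. They were chosen from 196406 names listed in the piRNA tables. Reads of each entry were scaled to the total of the library's piRNA table and given as RPM (reads per 1000000), and a name absent from a table was taken as 0. Each entry then had 4 values, for primordial germ cells, spermatogonia, spermatozoa, and the mean of oocyte and zygote. An entry was kept with at least 100 reads over the 5 libraries, a name not marked chrM, and a spermatozoa value of at least 60% of the sum of the 4. Of 11444 entries that met the first conditions, 10.5% met the last. The levels in spermatozoa relative to the other cells therefore chose the members, and are given as a description with no test.

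The libraries were small RNAs of 18 to 32 nucleotides, with 1 library per cell type and so no replicate check of any difference. Primordial germ cells came from male gonads of CD-1 fetuses at 13.5 days post coitum, purified with anti-CD15 beads. Spermatogonia came from CD-1 testes at 8.5 days after birth, taken from the supernatant after somatic cells had adhered. Spermatozoa were squeezed from cauda epididymis and vas deferens of mature CD-1 males and passed through a Percoll gradient and a hypo-osmotic shock. The oocyte library pooled 15210 metaphase II oocytes of superovulated C57BL/6 females. The zygote library pooled 15416 zygotes, 15 to 18 hours after fertilization, from matings of DBA/6J males to C57BL/6 females. Strain, preparation and cell type cannot be told apart between the egg and male germ line libraries.

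PIWI-interacting RNAs (piRNAs) are small RNAs that guide PIWI proteins to complementary RNA and silence transposons in the germ line. In the mouse testis they appear in fetal germ cells and again, in far greater amounts and from long single-stranded precursors, in spermatocytes at the pachytene stage and in round spermatids. Those later cells, between spermatogonia and spermatozoa, were not among the libraries. The tables give a name and a read number for each entry, so the sequence, read length and genome position of the members were not analysed here.

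Spermatozoa had the deepest piRNA table, with 18212803 reads, followed by oocyte (14513316), zygote (9552106), spermatogonia (7150813) and primordial germ cells (5820204). Most values had a decimal part as deposited, to 9 decimals in spermatozoa and 2 in the other libraries, for 78.3% to 82.7% of names per table. As a check of the label by miRNAs, 4 of 4 markers of late spermatogenesis (miR-34b, miR-34c, miR-449a) were read in spermatozoa. Their sum was 232206 RPM, here of the miRNA table, against 918 to 8254 in the other libraries. Markers of other cells were also highest in this library for epithelium (5 of 5 markers read, 22789 against 1071 to 9934), red cells (3 of 3, 16923 against 123 to 1543) and leukocytes (3 of 3, 2762 against 28.8 to 537). Muscle-like markers (2 of 2) were at 230738 there and at 9259 to 233042 elsewhere. The miRNAs listed for the oocyte and early embryo summed to 60.02, with 2 of 7 at 0. This list was highest in primordial germ cells (29439), with 9529 in the zygote, 4497 in the oocyte and 1378 in spermatogonia. The part of these other cells in the piRNA values was not tested.

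Together the members took 73454 RPM in spermatozoa, or 7.35% of its piRNA reads [7.33 to 7.36]. Brackets give exact 95% intervals, which cover counting error only. Elsewhere the same entries took 6418 RPM (spermatogonia), 5732 (oocyte), 4847 (primordial germ cells) and 4480 (zygote). The sum in spermatozoa was thus 11.4-fold that in spermatogonia [11.3 to 11.6], 15.2-fold that in primordial germ cells, 12.8-fold that in the oocyte and 16.4-fold that in the zygote. Most spermatozoal piRNA reads lay outside the members, on entries that the earlier germ cells also held.

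The largest of those, PIR64428, fell just below the limit, and the chosen entries hold far more of the sperm library where it is included. It took 36.3% of the piRNA reads of spermatozoa, 12.1% of those of spermatogonia, 10.7% in primordial germ cells, 2.66% in the oocyte and 1.76% in the zygote. Its spermatozoa value was 59.3% of the sum of its 4 values. At a limit of 50% it was included, and the members' share of spermatozoa reads was 44.7%. Under each of 5 other scalings it met the rule, as did further entries, and that share then lay between 60.02% and 63.0%. PIR64875 and PIR64874, the next 2 entries of that library, had 48.9% each.

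**Figure D1:**
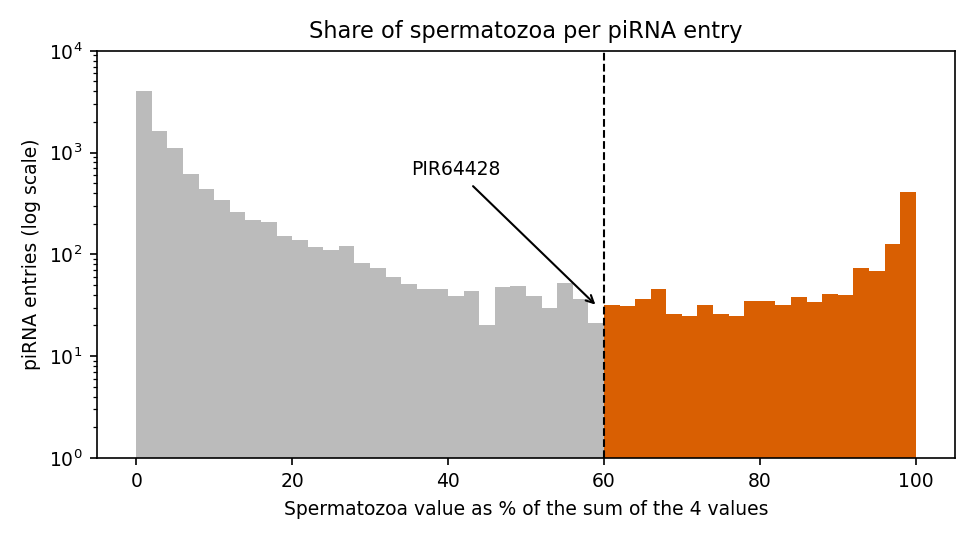
Histogram of the spermatozoa value as a percentage of the sum of the 4 values (horizontal axis) over the 11444 entries, in bins of 2 points with the number of entries on a log scale. Members are coloured, and the arrow marks PIR64428 at 59.3%, left of the 60% limit (dashed), while 712 members lie at 90% or more.

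Entries that met the read minimum piled up at both ends of this scale. Of the members, 1136 met it through spermatozoa alone, the deepest library. Below 10% there were 7840 entries, each bin of 10 points between 40% and 90% held 143 to 200, and 712 lay at 90% or above, which is 59.0% of the members. The median member was at 93.9%. Just inside the limit were PIR211019 at 60.01%, mmur000591127 at 60.02% and mmur000588876 at 60.04%. PIR211019 had 4.38 RPM in spermatozoa and 2.82 in spermatogonia. Just outside were mmur001136025, mmur001136026 and mmur001136027, each at 59.8%, with 7.85 RPM in spermatozoa and 3.24 in primordial germ cells.

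A few members held most of the reads. The 5 most abundant took 30.8% of the members' spermatozoa reads [30.7 to 30.8], the first 20 took 58.9% and the first 100 took 79.2%. The other 1186 members had at most 546 RPM in spermatozoa. The median member had 179 reads there, or 9.80 RPM, and the lowest had 59.9 reads. Of all members, 1136 reached the minimum of 100 reads through spermatozoa alone, and the median member had 7.52 reads over the other 4 libraries together. The minimum therefore follows the depth of the spermatozoa table: 371 members were left when every library was scaled to the smallest one, with 6.65% of the spermatozoa reads.

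**Figure D2:**
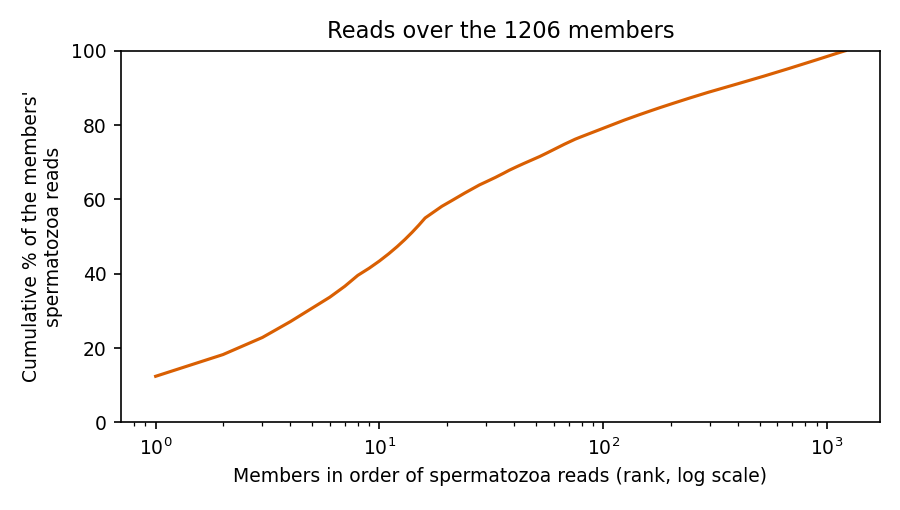
Cumulative percentage of the members' spermatozoa reads (vertical axis) against the rank of the 1206 members by those reads (horizontal axis, log scale). The first 20 members reach 58.9% and the first 100 reach 79.2%.

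The most abundant member, PIR63462, had 9118 RPM in spermatozoa. It had 808 in spermatogonia, 191 in primordial germ cells, 534 in the oocyte and 530 in the zygote. It was 11.3-fold higher in spermatozoa than in spermatogonia [10.99 to 11.6]. It belongs to 5 members with consecutive names, PIR63459 to PIR63463, which summed to 17920 RPM in spermatozoa. Within this run the levels were uneven, from 428 RPM for PIR63459 to the 9118 of PIR63462, with PIR63463 at 4295, PIR63461 at 2665 and PIR63460 at 1415. All 5 had spermatogonia as the highest single library after spermatozoa. The ratio of spermatozoa to spermatogonia ranged from 3.83-fold for PIR63459 [3.56 to 4.13] and 4.55-fold for PIR63461 [4.41 to 4.70] to that of PIR63462. The run ended sharply on one side, since PIR63458 had 4.01 reads in all libraries together. On the other side PIR63464 had a like spermatozoa share, 71.6%, but 52.8 reads.

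Members with at most 10.3 RPM in every other library stood next to these in abundance. PIR224172 had 3135 RPM in spermatozoa, 10.3 in primordial germ cells, 1.68 in spermatogonia, 1.10 in the oocyte and 1.503 in the zygote. Its ratio to spermatogonia was 1868 [1069 to 3615], wide because it rests on 12 spermatogonia reads. The neighbours mmur000829117 and mmur000829116 had 811 and 768 RPM in spermatozoa and at most 9.05 in any other library. PIR219263 had 721 RPM in spermatozoa and at most 4.20 elsewhere. PIR24546, outside the first 20, had 413 RPM in spermatozoa, 5.41 in primordial germ cells and 0 in spermatogonia, which makes it at least 984-fold higher than in spermatogonia, with 3 counts as the floor.

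In PIR247259 and PIR261690 the level in primordial germ cells was above that in spermatogonia. PIR247259 had 613 RPM in primordial germ cells, 17.8 in spermatogonia and 3381 in spermatozoa, with 3.15 in the oocyte and 2.90 in the zygote. PIR261690 had 153, 4.06 and 557 RPM in the same male stages, and under 1 RPM in each egg library. The spermatozoa level was 5.51-fold that of primordial germ cells for PIR247259 [5.33 to 5.70] and 3.64-fold for PIR261690, while against spermatogonia the ratios were 190 and 137. Fetal and postnatal cells were purified in different ways, and the part of that in this difference was not tested.

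In 2 other runs the mean of oocyte and zygote came next after spermatozoa. The 7 entries mmur000975707 to mmur000975713 had 1412 to 1425 RPM each in spermatozoa. In the oocyte each stood at about 413 RPM, in the zygote at 263, in primordial germ cells at 202 to 206 and in spermatogonia at 136 to 140. Their values lay within 10% of each other in every library. The spermatozoa ratio to the oocyte was 3.45-fold for mmur000975713. The 3 entries mmur000231287 to mmur000231289 had 2151 to 2157 RPM in spermatozoa, 174 to 175 in the oocyte, 169 to 171 in the zygote, 168 to 171 in spermatogonia and 37.4 to 39.3 in primordial germ cells. For this run the egg and spermatogonia levels overlapped.

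**Figure D3:**
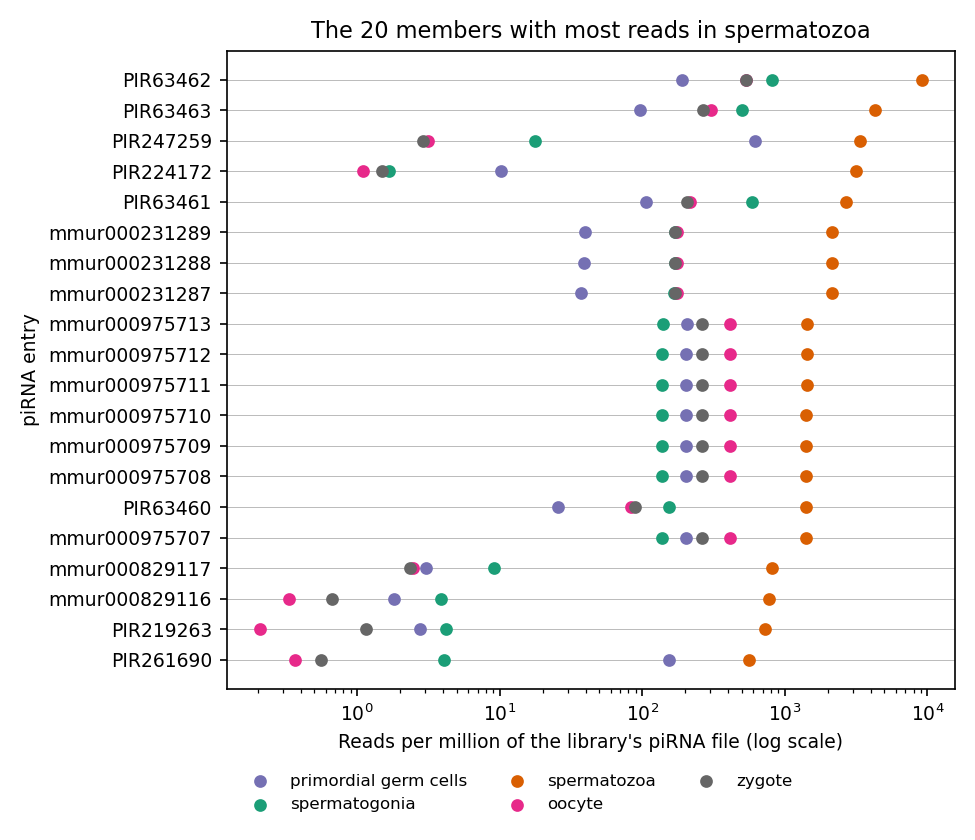
RPM (horizontal axis, log scale) of the 20 members with the most spermatozoa reads, 1 row per entry and 1 point per library. Spermatozoa lead in every row, while the next library is spermatogonia for PIR63460 to PIR63463, primordial germ cells for PIR247259 and PIR261690, and the oocyte for the mmur000975707 to mmur000975713 run.

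All members can be placed by which of the other 3 values came next. Primordial germ cells came next in 399 members (33.1%), spermatogonia in 406 (33.7%) and the mean of oocyte and zygote in 273 (22.6%). The remaining 128 (10.6%) were listed in no table but that of spermatozoa. Many of these places rest on few reads, since the median member had 7.52 reads over the other 4 libraries together. PIR1780, for example, had primordial germ cells next on 1 read there. A single read also gives more RPM in a shallower library. No like count over all entries is given, so nothing is read from these numbers of members. Members with primordial germ cells next summed to 15518 RPM in spermatozoa, 1726 in primordial germ cells and 253 in spermatogonia. Those with spermatogonia next summed to 34537 RPM in spermatozoa, 1414 in primordial germ cells and 4502 in spermatogonia. The 273 with the egg next summed to 21946 RPM in spermatozoa, against 3972 (oocyte) and 2805 (zygote).

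The 128 members seen in spermatozoa only had low levels, from 100 to 1646 reads with a median of 142.8, and summed to 1454 RPM. The highest was PIR274520 at 90.4 RPM, followed by PIR198392 at 53.9. A count of 0 allows up to 0.420 RPM in spermatogonia, 0.515 in primordial germ cells, 0.207 in the oocyte and 0.314 in the zygote, taking 3 counts as the floor. Single libraries lacked more members: 497 were at 0 in spermatogonia, 439 in primordial germ cells, 500 in the oocyte and in the zygote 462. Over all 11444 entries the numbers were 837 (7.31%), 1187 (10.4%), 730 (6.38%) and 632 (5.52%). The rule keeps the other levels of a member low, so nothing is read from this difference.

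Pair by pair, with a minimum of 100 reads over the pair, a pseudocount of 0.5 reads and a limit of 4-fold, 1054 of 1152 measured members were higher in spermatozoa than in spermatogonia. Over all piRNA entries that limit was passed by 17.2%. Against primordial germ cells it was 1065 of 1153 members (22.7% of all entries), against the oocyte 1129 of 1151 (31.7%) and against the zygote 1120 of 1149 (33.8%). The rule used these contrasts, so nothing is read from the counts. The median log2 ratio of the measured members, fitted with the pseudocount, was 6.30 against spermatogonia, 5.52 against primordial germ cells, 7.35 against the oocyte and 6.63 against the zygote. The smallest ratios among them were 0.70, 0.57, 1.11 and 0.22 on the same scale.

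The kinds of name among the members, which the rule did not use beyond the chrM mark, differed from those of entries led by earlier germ cells. Names are of 2 kinds, PIR and mmur, and PIR numbers fall in 2 blocks, from 1000 to 89637 and from 193281 to 276193. PIR names made up 997 of the 1206 members (82.7%) but 40.4% of all 11444 entries. By the same rule they made up 22.0% of 3032 entries led by spermatogonia, 22.2% of 990 led by primordial germ cells and 95.2% of 1739 led by oocyte and zygote. The upper PIR block alone gave 56.3% of the members, against 8.54% and 8.89% of the entries led by spermatogonia and primordial germ cells and 50.5% of those led by the egg. Under the 5 other scalings PIR names made up 63.0% to 76.7% of the members then chosen, and the upper block 39.3% to 50.2%. These shares also moved with the read minimum. With every library scaled to the smallest, PIR names made up 74.9% and the upper block 48.0%. A minimum of 20 reads gave 92.5% and 60.3%, and of 1 read 96.9% and 51.5%. Put the other way, 29.7% of the upper-block entries, 13.6% of the lower-block entries and 3.07% of mmur entries were members. Names with near-equal reads may not be independent, and no test was made. How the name sets were compiled is not given in the sources used here.

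**Figure D4:**
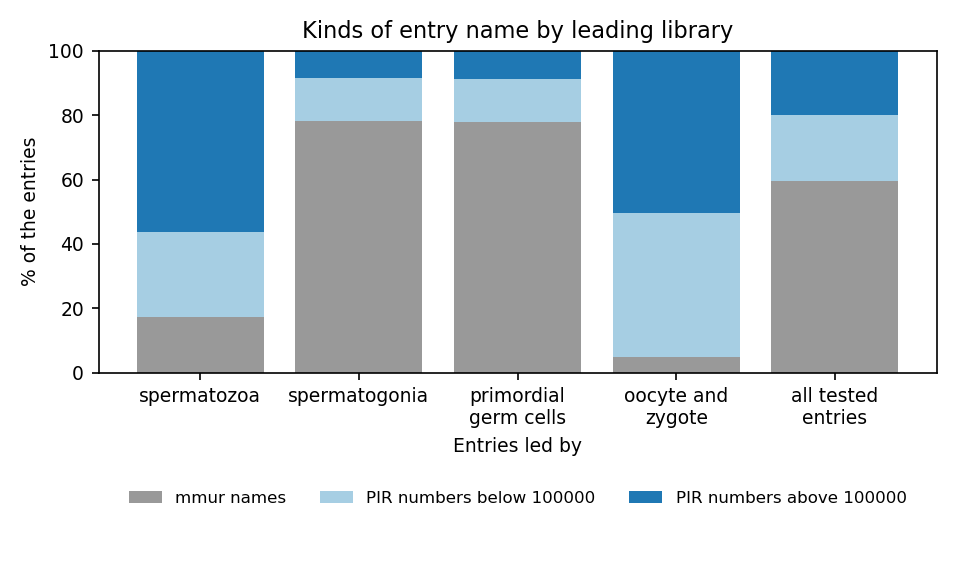
Percentage of entries (vertical axis) with mmur names, PIR numbers below 100000 and PIR numbers above 100000, for entries led by each library or pair of libraries and for all 11444 entries. The upper PIR block makes up 56.3% of the entries led by spermatozoa and 8.54% of those led by spermatogonia.

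The 2 kinds of name also differed in how often the members were missing elsewhere. Of the 997 PIR members, 49.2% were at 0 in spermatogonia and 49.5% in the oocyte. For the 209 mmur members both shares were 2.87%. PIR names were also missing more often over all 11444 entries, with 17.9% at 0 in spermatogonia and 14.8% in the oocyte, against 0.132% and 0.645% of mmur names. Of the 128 members seen in spermatozoa only, 126 had PIR names. The median spermatozoa share was 96.4% in PIR and 75.5% in mmur members. The rule used these zeros and shares, so nothing is read from their difference between the 2 kinds among the members. In reads, PIR members took 64.3% of the members' spermatozoa total and mmur members 35.7%. By next library, mmur names made up 35.7% of members with spermatogonia next, 9.77% of those with primordial germ cells next and 8.42% of those with the egg next. Many of these places rest on few reads, as given above.

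Many members had reads near those of another member. Whether the same reads were counted for both was not tested. Of all members, 294 (24.4%) stood in runs of 2 to 9 consecutive names, against 56.2% of all 11444 entries. By kind it was 155 of the 209 mmur members and 139 of the 997 PIR members. As mmur names made up 17.3% of the members but 59.6% of all entries, the 2 shares are not alike in make-up. Of 106 pairs of consecutive mmur members, 91 (85.8%) had spermatozoa reads within 10% of each other, against 52.9% of such pairs over all entries. For PIR members it was 39 of 85 pairs (45.9%), against 28.9%. The rule chose members by their spermatozoa value, with a median of 226 reads in mmur members and 22.9 in all mmur entries. For PIR names the medians were 169 and 26.1, so nothing is read from these differences. Near-equal reads also joined names far apart. Among the 100 most abundant members, 50 fell into 16 groups with reads within 10%, or within 2 reads, of a fellow in every library, and in 6 of those groups the names were not consecutive. PIR75202 and PIR58452 are such a pair, at 546 and 522 RPM in spermatozoa, 63.1 and 62.9 in oocytes, 31.8 and 31.5 in zygotes, and 24.2 each in primordial germ cells. The largest group held 12 PIR names, from PIR64240 to PIR242548, with 173 to 174 RPM in spermatozoa, 28.2 to 28.3 in spermatogonia and 11.1 to 11.2 in primordial germ cells. The allowance of 2 reads lets members near 0 elsewhere match on spermatozoa reads alone. PIR1780, PIR274520 and PIR213821 form such a group, with at most 2 reads in any other library. No like count of groups is given for other entries. Consecutive names with spermatozoa reads within 10% of each other were also counted once, before the rule was applied, which left 1054 members. Their 5 most abundant took 41.8% of these members' spermatozoa reads. Near-equal names that were not consecutive stayed separate.

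Zygotes were set beside oocytes, the stage before the sperm contributes. The rule used only the mean of these libraries. Of the 55 members with at least 100 reads over the pair, none differed 4-fold in either direction. Over the 4135 entries measured in this way, 5.2% were higher and 5.03% lower. At a minimum of 20 reads over the pair, 18 of 186 measured members differed 4-fold, against 12.2% of all entries measured. The 55 are the members most abundant in the egg, and the other 1151 were too low for the comparison. The median log2 ratio of zygote to oocyte was -0.05 in the 55 and 0.50 over all 4135 entries. By sums, the 55 had 5427 RPM in oocytes and 4082 in zygotes, a ratio of 0.752 [0.743 to 0.761], against 0.993 over all entries measured. The 7 near-equal entries mmur000975707 to mmur000975713 gave 2890 of the oocyte RPM and 1838.5 of the zygote RPM. Another 12 of the 55 form 1 near-equal group, at log2 ratios of 0.24 to 0.25. The count, median and interval take such names as separate entries, which they may not be.

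At the extremes, PIR255029 had 3.86 RPM in oocytes and 13.4 in zygotes, and PIR21075 had 4.52 and 10.9. PIR255029 had 43.9 RPM in spermatozoa, and PIR21075 had 24.3. At the other end PIR63513 had 13.1 RPM in oocytes and 4.89 in zygotes, followed by mmur001143264 with 28.3 and 13.1. PIR75202, among the 5 lowest, had 63.1 and 31.8. Of the members most abundant in the egg, PIR63462 lay near equality with 534 and 530 RPM, and each entry of the mmur000975707 to mmur000975713 run had about 413 and 263.

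For the low members the ratio of sums lay above 1 with the piRNA scaling. The 1151 members under the minimum had 305 RPM in all in oocytes and 398 in zygotes, a ratio of 1.31 [1.25 to 1.36], where all 7309 entries under the minimum gave 1.02 [1.01 to 1.03]. Of these members 478 were higher in the zygote, 338 were lower, and 335 were at 0 in both, so that 58.6% of those that differed were higher. Over all entries under the minimum 3390 were higher, 3473 lower and 446 at 0 in both, or 49.4% higher. The 7309 entries include the members. At few reads the direction depends on depth, since 1 read gives more RPM in the zygote, the shallower library. The rule also limits the members' egg reads, so nothing is read from the difference in these counts. With reads scaled to all 4 classes of small RNA the ratio of the low members was 0.860 and that of all low entries 0.671. A scaling moves all entries alike, so the low members stood at 1.28 times all low entries under both by construction. That equality is therefore no check of the scaling. The counts of members higher and lower were made with the piRNA scaling only, with near-equal names counted separately. No zygote library has a replicate, and the 20 most abundant of these members gave 19.8% of their zygote reads.

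Some members were read in only 1 of the egg libraries. Of 500 members at 0 in the oocyte, 91 had at least 1 read in the zygote, or 18.2% [14.9 to 21.9]. Over all entries at 0 in the oocyte the share was 25.1%. In the reverse direction 73 of 462 members at 0 in the zygote had an oocyte read, or 15.8% [12.6 to 19.5], against 18.5% over all entries. Members are 500 of the 730 entries at 0 in the oocyte, and the rule limits their egg reads, so nothing is read from these differences. The most zygote reads on a member at 0 in the oocyte were 14.5. These intervals take entries as independent, which members with near-equal reads may not be, and the oocyte table is the deeper of the pair.

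**Figure D5:**
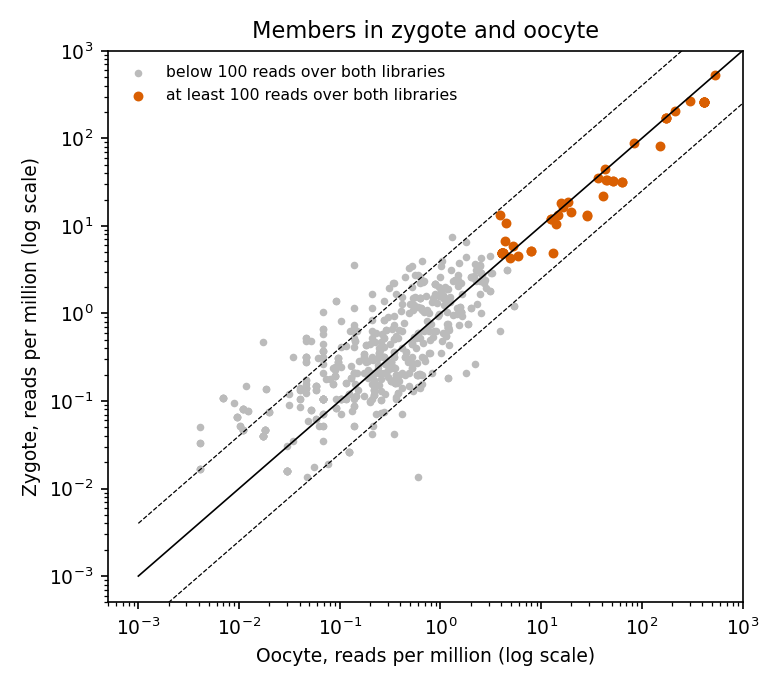
RPM in the zygote (vertical axis) against the oocyte (horizontal axis), both on log scales, for the 579 members read in both libraries, with equality (solid) and 4-fold limits (dashed). The 55 members with at least 100 reads over the pair all lie within 4-fold, while the other 627 members, at 0 in at least 1 of the libraries, are not drawn.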

How the data were processed

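Small RNA tables of 5 libraries, 1 per cell type, were used. The read column holds expected counts, many with a decimal part, as the authors deposited them. The other column, TMM per the file headers, is a signal equal to the deposited reads times 1 factor per library. Bowtie 0.12.7, DESeq and mm10 are named, without roles, per the submitters' processing notes. How reads with several matches were treated is not given in the sources used here. The read column was scaled to the total of the piRNA table, with the rule given at the start. Ratios used a pseudocount of 0.5 reads, at least 100 reads over the pair and a 4-fold limit. With 1 library per group there is no test. Exact (Clopper-Pearson) 95% intervals used reads rounded to whole numbers, and PCR copies are not independent molecules. Against 0 reads, 3 counts served as floor. Named were the first 20 members in spermatozoa, those leading each other library, those nearest the limit and the extremes of zygote to oocyte. PIR63459, PIR24546, PIR274520, PIR198392, the largest entries outside the members and the near-equal groups were named after their values were seen. Rows naming no single snoRNA (0.551% to 4.59% of snoRNA reads) stayed out of totals. Scripts used Python 3.11.15, pandas 2.3.3 and scipy 1.17.1, with edgeR 4.0.16 TMM and DESeq2 1.42.0 size factors as alternatives. The rule was tested on simulated data. Members, marker lists and comparisons were chosen with earlier results of these data known.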

Additional observations from a re-analysis of the deposited data

How the results depend on the processing

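Scaling and the limit set what the group holds, and the cause was not tested. The 1206 members became 1827 with reads scaled to all 4 classes, 2087 with DESeq2 size factors and 1929 with the factor of the deposited column, the last chosen after seeing the data. With edgeR's TMM factors they were 1718. With the 5 most abundant entries of each library left out of the scaling totals, but still open to the rule, they were 1479. All 1206 were kept under each of these scalings. A minimum of 20 reads gave 6071 members and of 1 read 48929, by construction. With every library scaled to the smallest, also chosen after seeing the data, it was 371. The share of spermatozoa reads, 7.35%, was 61.8% with the deposited factor, 44.7% at a limit of 50%, 4.84% at 80%, 8.35% and 9.44% with minimums of 20 reads and 1 read, 6.65% with every library scaled to the smallest and 7.41% with runs counted once. Runs here were consecutive names within 10% of each other in spermatozoa. Counted once, they raised the share of the 5 most abundant members to 41.8%. In what follows the members were chosen anew under each setting, so that scaling and membership change together. Members at least 4-fold apart between zygote and oocyte went from 0 of 55 measured to 20 of 190 with all classes, 4 of 150 with TMM factors, 6 of 218 with DESeq2's, 5 of 192 with the deposited factor and 21 of 212 with a minimum of 20 reads. Over all entries measured the share was 11.9%, 10.06%, 11.1%, 10.1% and 12.2% in the same order. With the 1206 members kept as they were, 1 of the 55 was called with all classes and 0 under each other scaling. The count of 0 depended on the read minimum. For the same 1206 members, 18 of 186 measured were called at a minimum of 20 reads over the pair. At a minimum of 1 read it was 168 of 696, against 27.1% of all entries measured. The zygote to oocyte ratio of the members' sum, 0.782, was 0.451 with all classes and 0.618 with TMM factors. It was 0.621 with the most abundant entries left out of the totals and 0.654 with the deposited factor. It stayed below 1 in these and with DESeq2's (0.779). For the same 1206 members it was 0.515, 0.710, 0.714, 0.750 and 0.872 under these scalings. No paired analysis was possible because each group has 1 library.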

Other observations

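The spermatozoa table listed 157990 piRNA names, against 84740 to 95166 in the other libraries, and 43237 of them occurred in no other table. Only 128 of those had the 100 reads asked of a member. Of the 1206 members, 171 had spermatozoa reads with no decimal part as deposited, and these took 3.28% of the members' spermatozoa reads. The highest of them had 1722 reads.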
